A study of Mus musculus with 2 samples.

Results

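The genes described here are the ligands and receptors of axon guidance, the signals that steer growing nerve fibres, and the data are maps of open chromatin in the embryonic mouse face. They are the protein-coding genes of the GENCODE M21 annotation whose symbols name them as Eph receptors, ephrins, semaphorins of classes 3 to 7, plexins, neuropilins, Slits, Robos, netrins, Unc5 receptors or Dcc. This rule found 69 of 21938 protein-coding genes, 35 of them ligands and 34 receptors, in 13 families. It used symbols alone and no measured value.

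The tissue was facial prominence from healthy B6NCrl mouse embryos aged 14.5 days, with male and female embryos pooled. DNase-seq was used, in which nuclei are treated with DNase I and the DNA it cuts free is sequenced, so that accessible chromatin is recovered more often than closed chromatin. There was 1 group of 2 biological replicates, separate tissue samples filed under a shared donor record, with no treatment, mutant or second tissue. With 2 samples of a single group no test between conditions was possible, and genes of a family are not replicates of one another, so all comparisons below are descriptions.

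Ephrins are cell-surface ligands for Eph receptor tyrosine kinases, and cells that meet through them are often driven apart or sorted into separate territories. Semaphorins act through plexins, the secreted class 3 forms mostly together with a neuropilin. Slits act through Robos, and netrins through Dcc and the Unc5 receptors. Beside nerve growth, these systems take part in neural crest migration, in the growth of blood vessels and in the shaping of the face and palate, and loss of ephrin-B1 in people causes craniofrontonasal syndrome.

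A peak is a region of 150 bp listed by the authors in a replicate, with a score of theirs that has no stated unit and ranks peaks within that list. A site counted as shared where peaks of both replicates overlapped by at least 1 bp. A promoter peak lay within 500 bp of a transcription start of the gene, and a distal site lay over 1000 bp from every start. Only starts of the basic annotation were used, and the 5′ end of a gene need not be one of them. The window of a gene is its body with 100 kb on each side. Closed chromatin cannot be read from the lack of a peak, and the gene that a distal site regulates cannot be read from its position.

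Replicate 1 had the longer list, 304233 peaks against 217980 in replicate 2, and the windows held 4163 and 3060 of them, a ratio of 1.36 against 1.40 over the whole lists. In the windows 61.8% of replicate 1 peaks and 84.8% of replicate 2 peaks were shared, against 59.2% and 83.6% genome-wide. Shared promoter peaks were found for 9 of 9 listed markers of facial mesenchyme, 6 of 6 of epithelium, 6 of 6 of neurons, 4 of 4 of skeletal muscle, 4 of 5 of endothelium, 4 of 5 of forebrain and eye, 1 of 4 of blood and 0 of 5 of hepatocytes. Of all 21938 protein-coding genes 67.5% had a shared promoter peak, so a high count in a short list is weak information about tissue. The lists of neurons and of forebrain and eye had high counts too. The counts did not go against the tissue label, but they cannot tell this tissue from others. The tissue holds several cell types, and which of them carried any of the sites below was not tested.

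The joined windows of the 69 genes covered 24.8 Mb, or 0.912% of the main chromosomes, and held 1911 shared distal sites, or 1.36% of all 140271. That is 7.69 sites per 100 kb, against 5.15 per 100 kb of the genome. Of the 1911 sites, 1205 lay in introns, 621 between genes and 85 in exons, and 889 (46.5%) were inside the body of a member. For 1176 of them (61.5%) the nearest protein-coding start was that of a member, so the others lie in these windows but nearer to another gene. Their median distance to the nearest start was 37.7 kb, and their median scores were 64 in replicate 1 and 40 in replicate 2, against list medians of 50 and 37.

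The strongest distal sites nearest to a member are shown for 6 families, since they are regions outside promoters with high ranks in both replicates beside these genes. The Sema6a site (scores 129 and 115) ranked second among all sites nearest to a member and is given by its values, without its sequence. Each is the replicate 1 peak of the site, in GRCm38 coordinates, and capitals mark a match to one of the 12 searched motifs given with the motif counts. The restriction to sites nearest to a member was made after values had been seen, because the highest sites of the windows lay beside neighbouring genes.
Efna5, chr17:62882996-62883145, strand +: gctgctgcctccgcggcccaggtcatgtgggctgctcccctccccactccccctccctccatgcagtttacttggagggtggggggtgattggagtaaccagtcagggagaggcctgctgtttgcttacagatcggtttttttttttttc
Sema4c, chr1:36580496-36580645, strand +: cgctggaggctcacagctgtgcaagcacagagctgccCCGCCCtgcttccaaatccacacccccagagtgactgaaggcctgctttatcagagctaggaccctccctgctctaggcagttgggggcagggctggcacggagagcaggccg
Ephb3, chr16:21310956-21311105, strand +: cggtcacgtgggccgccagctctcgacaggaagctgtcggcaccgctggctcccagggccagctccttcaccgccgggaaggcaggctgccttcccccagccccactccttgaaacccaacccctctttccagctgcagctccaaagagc
Plxnc1, chr10:94829556-94829705, strand +: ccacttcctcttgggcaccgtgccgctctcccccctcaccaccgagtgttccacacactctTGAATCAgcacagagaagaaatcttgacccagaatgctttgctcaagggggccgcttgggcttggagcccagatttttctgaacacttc
Epha3, chr16:63857076-63857225, strand +: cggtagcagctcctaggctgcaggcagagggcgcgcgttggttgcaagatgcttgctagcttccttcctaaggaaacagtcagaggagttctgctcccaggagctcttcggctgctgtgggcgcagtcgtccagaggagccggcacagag
Efnb2, chr8:8658956-8659105, strand +: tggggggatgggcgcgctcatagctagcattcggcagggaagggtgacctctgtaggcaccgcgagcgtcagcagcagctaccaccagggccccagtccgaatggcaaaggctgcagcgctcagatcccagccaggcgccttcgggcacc

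The Efna5 site lay 1734 bp from the start of Efna5, which encodes ephrin-A5, between genes, with scores of 132 in replicate 1 and 117 in replicate 2. It had the highest mean rank of all sites nearest to a member. The Efnb2 site (scores 127 and 103), in an intron 2221 bp from the start, belongs to the ephrin-B2 gene, whose product is also an arterial marker. The Epha3 site (123 and 108) was intronic too, 6939 bp from the start of that receptor gene.

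The others were farther away. The Plxnc1 site (130 and 102), in an intron of this receptor for Sema7a, lay 115214 bp from the gene's nearest protein-coding start and carried an AP-1 match. The Sema4c site (136 and 105) lay in an intron of the neighbouring gene Fam178b, 22212 bp from the Sema4c start, and carried a GC box. The Ephb3 site (128 and 112) was intergenic and lay 99946 bp from the start of Ephb3. Of these 6 sequences 4 held none of the searched motifs.

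Promoter peaks were found in nearly every family. Of the 69 members 63 (91.3%) had a promoter peak shared by the replicates, against 67.5% of all 21938 protein-coding genes. Ligands had one in 34 of 35 genes and receptors in 29 of 34. All members of EphB (5), ephrin-A (5), ephrin-B (3), Sema3 (7), Sema4 (6), Sema5 to Sema7 (7), neuropilins (2), Slit (3) and Unc5 with Dcc (5) had a shared promoter peak. The families with exceptions were EphA (7 of 9), plexins (8 of 9), Robo (2 of 4) and netrins (3 of 4).

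Gene length goes with this share and with the windows. All 34 members with a body of 50 kb or more had a shared promoter peak, 16 of 50 to 200 kb and 18 over 200 kb, against 87.2% and 92.0% of all genes in these classes. Of the 35 members under 50 kb, 29 (82.9%) had one, against 61.4% of all genes of that length.

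**Figure D1:**
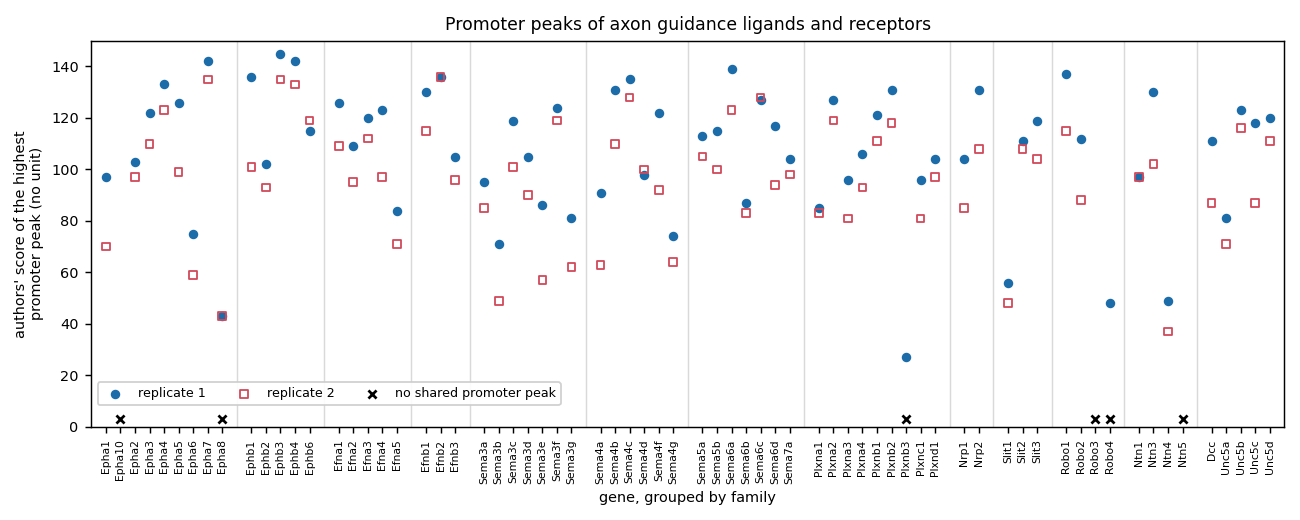
Authors' score of the highest promoter peak of each member in replicate 1 (filled circles) and replicate 2 (open squares), with genes grouped by family along the horizontal axis. Crosses mark the 6 members without a shared promoter peak. The replicate 1 value is higher in 58 of the 64 genes with a peak in both lists, and the medians of the whole lists differ too (50 and 37).

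In the plot of promoter scores, the 63 genes with a shared peak ran from 49 to 145 in replicate 1 and from 37 to 136 in replicate 2. Their medians were 115 and 98, below the medians of 122 and 111 for all genes with a shared promoter peak. Where both lists had a promoter peak (64 members), replicate 1 had the higher score in 58, the scores were equal in 3 and replicate 2 was higher in 3. The score ranks peaks within a list only, and the list medians were 50 and 37. This count was not made over all genes and cannot be read as a trait of the members.

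The highest mean ranks belonged to Eph and ephrin genes and to 1 semaphorin. Ephb3, which encodes a receptor tyrosine kinase for B-class ephrins, had scores of 145 in replicate 1 and 135 in replicate 2. Epha7, a receptor for A-class ephrins, had 142 and 135. Ephb4, the receptor paired with ephrin-B2 in veins and arteries, had 142 and 133. Efnb2 itself had 136 in both replicates, and Sema4c, a transmembrane semaphorin that binds plexin-B2, had 135 and 128. The lowest shared peaks were those of Ntn4 (49 and 37), a netrin of basement membranes, and Slit1 (56 and 48).

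The 6 members without a shared promoter peak were Epha10, Epha8, Plxnb3, Robo3, Robo4 and Ntn5. A promoter peak in replicate 1 alone was found for 2 of the 69, against 3.17% of all genes, and in replicate 2 alone for 0, against 0.921%. No promoter peak in either list was found for 3 of the 69, against 28.1% of all genes. The remaining gene had a peak in each list that did not overlap.

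Robo4, a Robo of endothelial cells on chromosome 9, had a peak on a start with a score of 48 in replicate 1, and the nearest peak of replicate 2 lay 4490 bp away. Plxnb3, a plexin gene on chromosome X, had a score of 27 in replicate 1 at 494 bp from its start, and the nearest peak of replicate 2 lay 8337 bp away. Both scores were below the replicate 1 list's median of 50. Epha8 on chromosome 4 had a score of 43 in each replicate, at 300 bp from its start in replicate 1 and at 20 bp in replicate 2.

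Of the 3 genes with no promoter peak at their GENCODE starts, Robo3 and Epha10 lay just outside the limit. Robo3, a divergent Robo needed for axons to cross the midline of the hindbrain, had its nearest peaks at 582 bp in replicate 1 and 562 bp in replicate 2, with scores of 102 and 91. Epha10, an Eph receptor that lacks kinase activity, had them at 737 and 777 bp, with scores of 79 and 49. Ntn5, a small netrin gene, had them at 1007 and 1037 bp, with scores of 56 and 91. The replicate 2 peak belonged to a shared site that counted as distal, with scores of 108 in replicate 1 and 91 in replicate 2. With 1000 bp in place of 500 bp, Robo3 and Epha10 had a shared promoter peak, and with the authors' hotspots, broader regions of DNase I cutting, Epha10, Epha8 and Robo3 had one.

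The promoter letters differed widely among these genes. RefSeq promoter sequences of 300 bp (250 bp before and 50 bp after a start, GRCm38.p6) were found for 59 members. The sequence of the top-ranked promoter is shown beside those of the 2 genes that had most and fewest CG steps among the genes without a shared peak, with every CG in capitals.
Ephb3 promoter, chr16:21204545-21204844, strand +: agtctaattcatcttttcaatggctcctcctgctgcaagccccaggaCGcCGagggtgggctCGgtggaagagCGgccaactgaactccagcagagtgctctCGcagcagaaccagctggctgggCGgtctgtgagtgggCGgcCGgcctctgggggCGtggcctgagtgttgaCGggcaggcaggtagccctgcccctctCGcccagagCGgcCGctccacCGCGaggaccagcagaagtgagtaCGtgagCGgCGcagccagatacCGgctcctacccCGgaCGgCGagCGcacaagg
Epha8 promoter, chr4:136956767-136957066, strand -: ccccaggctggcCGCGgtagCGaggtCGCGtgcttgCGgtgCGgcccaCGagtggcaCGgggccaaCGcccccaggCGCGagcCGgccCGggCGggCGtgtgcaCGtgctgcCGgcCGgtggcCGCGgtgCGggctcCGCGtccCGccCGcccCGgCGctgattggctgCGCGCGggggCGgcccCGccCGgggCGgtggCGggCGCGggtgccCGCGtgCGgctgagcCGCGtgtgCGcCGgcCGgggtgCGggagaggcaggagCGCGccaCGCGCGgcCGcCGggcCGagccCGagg
Robo4 promoter, chr9:37401722-37402021, strand +: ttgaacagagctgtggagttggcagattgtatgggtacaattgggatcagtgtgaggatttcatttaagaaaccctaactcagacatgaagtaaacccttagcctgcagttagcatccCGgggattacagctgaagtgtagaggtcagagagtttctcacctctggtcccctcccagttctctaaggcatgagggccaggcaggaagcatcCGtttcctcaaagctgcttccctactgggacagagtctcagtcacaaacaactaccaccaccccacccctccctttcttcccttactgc

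The Ephb3 promoter held 23 CG steps in 300 bp. The Epha8 promoter held 56, the most of any matched member, and had no shared peak, while the Robo4 promoter held 2. The 53 matched members with a shared promoter peak had a median of 23 CG steps, and the 6 without had 10.5. Over all matched genes the medians were 21 with a shared peak (11429 genes) and 3 without (5088 genes). The GC box GGGCGG, read on both strands, was in 77.4% of the 53 and in 50% of the 6, against 68.0% and 12.9% of the matched genes with and without a shared peak. Genes were sorted by GENCODE starts, which can differ from RefSeq starts. Among the 6, the RefSeq promoter of Epha10 (21 CG steps, with a GC box) did overlap a shared site. Some RefSeq promoters of the 53, such as those of Epha6 and Ntn4, did not. A letter match describes the sequence and does not show that a protein was bound.

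Distal sites were denser around these genes than around protein-coding genes in general, with wide spread. The median window held 8.41 shared distal sites per 100 kb over the members and 6.29 over all genes. Of the 69 members 31 (44.9%) lay above the upper quartile of all genes, 9.14 per 100 kb, which 25% of all genes exceed, and 51 (73.9%) lay above the median of all genes, which 50% exceed. The ligands had a median of 9.89, with 20 of 35 above the upper quartile, and the receptors 7.23, with 11 of 34 above it. The 9 members Epha8, Ephb2, Efna1, Efna3, Efna4, Sema3b, Sema3f, Robo3 and Robo4 share parts of their windows, so their sites are counted for each of them.

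**Figure D2:**
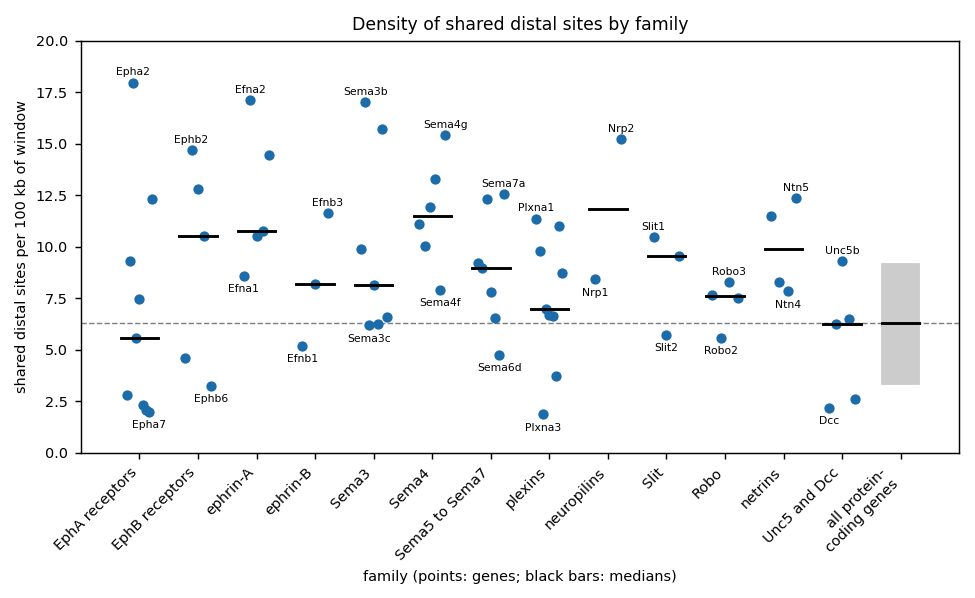
Shared distal sites per 100 kb of window for each member (points) in 13 families, with the family median as a black bar and the highest and lowest member named. The grey box and dashed line give the quartiles and the median of all 21938 protein-coding genes, and the EphA receptors reach from 1.98 to 17.97.

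Among the Eph receptors the A and B classes differed in their middle but overlapped. EphA receptors had the lowest family median, 5.57 per 100 kb, and the EphB receptors 10.5. The order turned in gene bodies alone, with 6.55 for EphA and 4.39 for EphB. EphA also had the widest range in the plot of density by family. Epha2, a receptor of epithelia, had 41 sites, or 17.97 per 100 kb, the highest density of any member, and 12 of the 41 were nearest to Epha2. Epha7 had 7 sites, or 1.98 per 100 kb. In the EphB class, Ephb2 had 57 sites and 14.7 per 100 kb, and Ephb6, whose kinase domain is inactive, had 7 sites and 3.26 per 100 kb.

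With the distal limit of 1000 bp, the ephrins except Efnb1 lay above the median of all genes. The ephrin-A median was 10.8 per 100 kb, from 8.60 at Efna1 to 17.1 at Efna2, genes of GPI-anchored ligands. The ephrin-A value depended on sites near starts. With a distal limit of 2500 bp it was 4.89, against 5.20 for all genes. The ephrin-B median was 8.20, from 5.17 at Efnb1 to 11.6 at Efnb3. Efnb1, Plxna3 and Plxnb3 are the 3 members on chromosome X, with a median of 3.71, and the median of all 948 protein-coding genes of that chromosome was 1.93, against 6.50 on the autosomes. Efna2 and Efnb3 lie in gene-rich DNA, with 11 and 9 other protein-coding genes in their windows, and only 3 of 36 and 1 of 24 sites were nearest to the ephrin gene. The overlapping windows of Efna1, Efna3 and Efna4 held 17, 17 and 16 other genes. There 3 of 18, 6 of 22 and 2 of 22 sites were nearest to the named gene. Efna5 differed, with 0 other genes and 69 of 69 sites.

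Semaphorins of all classes had medians above that of all genes. The Sema4 median was 11.5 per 100 kb, that of Sema5 to Sema7 8.96 and that of Sema3 8.14. In gene bodies alone these were 7.55, 14.7 and 9.07, so the order turned. In class 3, whose members are secreted, Sema3b had 17.0 per 100 kb and Sema3c, a ligand needed by cardiac neural crest, had 6.18. In class 4 the ends were Sema4g with 15.4 and Sema4f with 7.90. Sema7a, a GPI-anchored semaphorin, had 12.6 and Sema6d, a transmembrane one, had 4.76. The 33 sites around Sema4g were all nearer to another gene than to Sema4g, and 8 of 36 around Sema3b were nearest to Sema3b.

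Plexins, the receptors of semaphorins, had a median of 6.99 per 100 kb, and in gene bodies alone 11.1. Plxna1, a partner of neuropilins in semaphorin signalling, had 28 sites and 11.4 per 100 kb. Plxna3 had 4 sites and 1.86, the lowest density of any member, although its promoter scored 96 and 81. Its window, with 14 other protein-coding genes, held 42 replicate 1 and 37 replicate 2 peaks, 32 of each shared. Peaks near any start are left out of the distal density, and how many of the shared peaks lay near starts was not counted. Plxna3 lies on chromosome X, where the median of all protein-coding genes was 1.93 per 100 kb. The cause of its low density was not tested. The neuropilins, co-receptors for class 3 semaphorins and for VEGF, had 15.2 per 100 kb at Nrp2 (48 sites) and 8.41 at Nrp1 (29 sites).

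In the Slit and Robo system, the ligands had a median of 9.53 per 100 kb and the receptors 7.59. In gene bodies alone the order turned, with 9.71 for the Slits and 9.89 for the Robos. The ends among the Slits were Slit1 with 10.5 and Slit2 with 5.72. Among the Robos they were Robo3 with 8.27, although no promoter peak was found there, and Robo2 with 5.56. The netrin median was 9.88, with Ntn5 at 12.3 (2 of 26 sites nearest to it) and Ntn4 at 7.83, and that of the Unc5 receptors with Dcc was 6.24. Unc5b, a netrin receptor of endothelial cells, had 9.29, and Dcc, the netrin receptor of growing axons, had 28 sites in a window of 1297436 bp, or 2.16 per 100 kb.

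Densities differed with gene length. Members with a body under 50 kb had a median of 9.29 per 100 kb and those of 50 to 200 kb 9.54, against 6.11 and 6.94 for all genes of the same classes. The 18 members over 200 kb had 5.99, against 6.11 for all genes of that length, so the longest members were close to the background. Within the gene bodies the median densities of the 3 length classes, from short to long, were 12.4, 11.5 and 7.13 for members, against 0, 6.24 and 6.34 for all genes. In the flanks they were 8.50, 8.75 and 4.75 for members, against 6, 7 and 6 for all genes. A distal site lies over 1000 bp from every start, so part of a short body cannot hold one. Members under 50 kb still had the highest body median of the members, 12.4, while all genes of that length had 0. The cause of these values was not tested. The median body was 46.3 kb for members and 17.4 kb for all genes.

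Counted by number of sites, long genes led. Slit3 had 75 sites in its window, Robo1 72, Efna5 69, Sema3a 67, Sema5a 60, Ephb2 57, Nrp2 48, Ntn1 45, Plxna4 45, and Epha2, Sema4d and Sema6a 41 each. Of these, Slit3 is a secreted ligand also known from diaphragm and heart, Sema3a repels sensory and sympathetic axons, and Ntn1 is the netrin of the floor plate. Sites inside the body were 57 of 75 in Slit3, 62 of 72 in Robo1, 46 of 67 in Sema3a, 50 of 60 in Sema5a and 39 of 45 in Plxna4. The closest packing within a member's own region was in Efna5, where 12 sites fell within 20 kb inside the gene, at chr17:62776076-62793185.

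**Figure D3:**
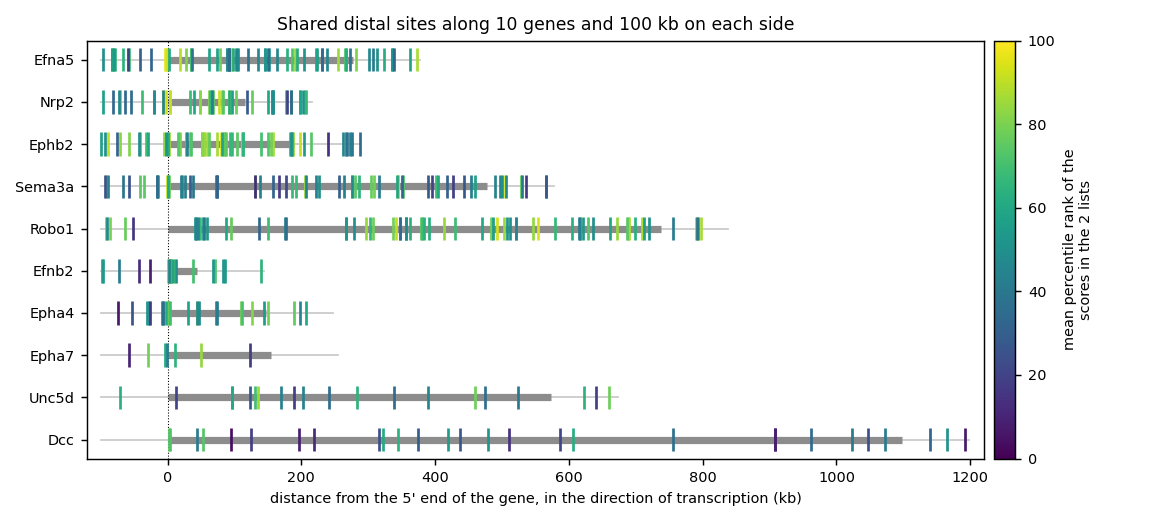
Position of each shared distal site along 10 members, in kb from the 5′ end of the gene in the direction of transcription, with the gene body as a thick grey bar and 100 kb on each side. Colour gives the mean percentile rank of the site's scores in the 2 lists; Efna5 and Nrp2 are dense along the whole window, while Dcc and Unc5d are sparse.

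In the map of sites along 10 genes, which were chosen after values had been seen, Efna5 had 15 sites upstream, 43 inside and 11 downstream of the gene. Nrp2 had 12 upstream, 19 inside and 17 downstream, so most of its sites lay outside the body. Robo1 had 5 upstream, 62 inside and 5 downstream. In Sema3a, sites at -0.0435 and 0.5265 kb from the 5′ end of the gene counted as distal. They lay over 1000 bp from every start of the basic annotation, but they are not far from the end of the gene. Dcc had 0 upstream, 25 inside a body of 1097 kb and 3 downstream, and Unc5d, another netrin receptor, had 1, 16 and 3. The longest stretches without a shared distal site were 285 kb in Epha6, 199 kb in Epha5, 153 kb in Dcc and 131 kb in Epha7.

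Some members lie in gene-poor DNA where the window of 100 kb leaves sites out. Counting every shared distal site whose nearest protein-coding start is that of the member, wherever it lies, Efna5 had 130, Robo1 111, Epha4 100, Efnb2 88, Robo2 79 and Nrp2 78. Epha4, a receptor for both ephrin classes, had 26 in its window and Efnb2 had 20. Epha7 had 56 by this count and 7 in its window, spread over 2809 kb nearest to it. The density of Epha7 stayed low by this measure, at 1.99 per 100 kb, and that of Epha4 was 7.55.

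In the full lists the number of peaks differed between the replicates in the same direction for nearly all members. Replicate 2 had more peaks than replicate 1 in 4 of 69 windows, against 8.13% of the windows of all genes with 20 or more peaks. These were Unc5a (32 in replicate 1 and 37 in replicate 2), Epha2 (70 and 78), Ephb4 (52 and 55) and Sema4g (64 and 67). Sema3b followed with 75 and 71. With replicate 1 shortened to the length of the other list, the 4 stayed below equality. Other windows also fell below equality there. Among receptors these were Dcc, Unc5d, Epha5, Epha6, Epha7, Epha8, Plxna3, Plxnb1, Plxnb3, Robo3 and Robo4. Among ligands they were Ntn3, Sema3c, Sema3d, Sema3e, Sema3f and Sema6b. The 4 thus did not stand apart in this setting, and the share over all genes was not counted. In the stronger part of both lists Unc5a had 15 and 13, Epha2 56 and 41, Ephb4 33 and 33, and Sema4g 53 and 49.

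**Figure D4:**
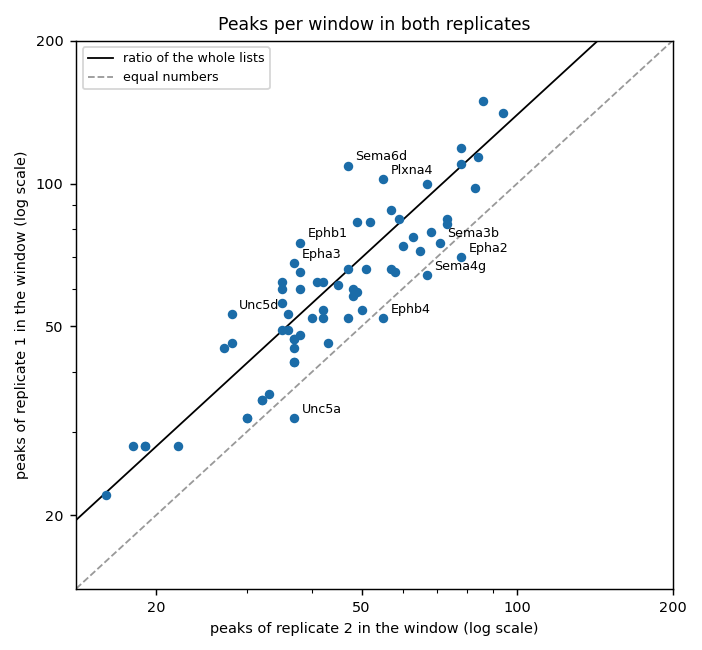
Number of peaks in the window of each member in replicate 1 (vertical, log scale) against replicate 2 (horizontal, log scale). The solid line is the ratio of the whole lists, 1.40, and the dashed line equal numbers; Sema6d lies farthest above the solid line and Unc5a, Epha2, Ephb4 and Sema4g lie below the dashed line.

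At the other end, 1 of 69 windows held at least 2 replicate 1 peaks for each replicate 2 peak, against 2.89% of all genes with 20 or more peaks. In the plot of peaks per window this is Sema6d, with 109 in replicate 1 and 47 in replicate 2, a ratio of 2.32. Of its 109 replicate 1 peaks 69 were in that list alone, with a median score of 41. The count was 82 and 47 with lists of equal length, 46 and 19 in the stronger part of each list, and 101 and 45 in hotspots. Next came Ephb1 (75 and 38), Unc5d (53 and 28), Plxna4 (102 and 55) and Epha3 (68 and 37). With lists of equal length Unc5d had 26 and 28, so the order turned there, and Dcc, with 62 and 35 in the full lists, had 23 and 35.

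These ratios went with gene length, over members and over all genes. Their medians were 1.20 for members under 50 kb, 1.29 for 50 to 200 kb and 1.59 over 200 kb, against 1.24, 1.33 and 1.47 for all genes. Whether the replicates differ in tissue or in read depth cannot be told apart here.

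The letters of the distal sites were close to those of all distal sites for most motifs. Windows of 150 bp were searched on both strands for 12 strings. The median GC content was 50% in the 1911 sites of the members and 48.7% in all. The GC box GGGCGG was in 8.63% of the sites of the members, in 6.89% of the 1176 nearest to a member and in 6.12% of all. The homeobox string TAATTA was in 4.40%, 5.61% and 4.18%, and a gapped CTCF string in 6.91%, 4.17% and 7.24%.

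**Figure D5:**
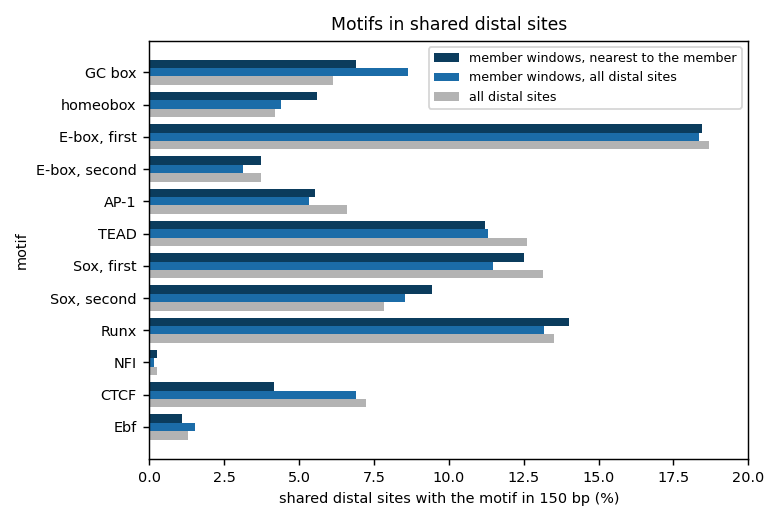
Share of shared distal sites with each of 12 motifs in 150 bp, for sites in member windows nearest to the member (dark), all sites in member windows (blue) and all distal sites (grey). The widest gaps are for the CTCF motif, with 4.17% of the sites nearest to a member and 7.24% of all, and for the GC box in all sites of the windows.

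The other strings of the plot of motif shares are given in the same way. For the 1911 sites against all distal sites, the E-boxes CAGATG and CATATG were in 18.4% against 18.7% and in 3.14% against 3.72%. The AP-1 string TGANTCA was in 5.34% against 6.58% and the TEAD string GGAATG in 11.3% against 12.6%. The Sox strings ACAAAG and ACAATG were in 11.5% against 13.1% and in 8.53% against 7.83%, and the Runx string TGTGGT was in 13.2% against 13.5%. A palindromic NFI string was in 0.157% against 0.260% and a palindromic Ebf string in 1.52% against 1.31%. The motifs overlap in places and neighbouring sites share surroundings, so these shares carry no test.

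Other genes of the pathway were listed from general knowledge. All 15 listed co-receptors and adhesion proteins and all 40 listed intracellular partners had a shared promoter peak, against 67.5% of all genes. Their median bodies were long, 162 and 115 kb, and 87.2% of all genes of 50 to 200 kb had one. The co-receptors and adhesion proteins had a median of 7.32 distal sites per 100 kb, with 9 of 15 above the median of all genes and 5 above its upper quartile. The intracellular partners, which link receptors to the cytoskeleton, had 9.91, with 33 of 40 above the median and 25 above the upper quartile. Neo1, a netrin and RGM receptor related to Dcc, had 26 sites in its window, and Rgma, a ligand of Neo1, had 32.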

How the data were processed

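DNase-seq peaks and hotspots of 2 biological replicates of mouse facial prominence at embryonic day 14.5 were read from the lists the authors deposited for each replicate, in mm10 (GRCm38) coordinates per the labels. The deposited peak lists give 150 bp regions with a score, and no normalization is stated for it. The deposited hotspot lists give a −log10 q-value per region. The aligner and peak caller were not given in the sources used, nor was the read depth, so the precision that depth would give is unknown and no interval was computed.

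Peaks on other sequences than the autosomes, X and Y (233 and 213) were dropped and repeated coordinates were kept once. Coordinates are 1-based. Transcription starts came from the basic GENCODE M21 annotation. Shared peaks (overlap of at least 1 bp) were merged into sites, and site density was counted per 100 kb of window. Replicate ratios were read for windows with 20 or more peaks. Scores served to rank and describe peaks within a list. Counting was tested on simulated data, where the counts of 200 of 200 planted genes were recovered. Python 3.11.15 was used with numpy 2.4.6, pandas 2.3.3, scipy 1.17.1 and matplotlib 3.10.9.

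The members and lists were chosen with earlier results of these data known. Genes were named by rule: members without a shared promoter peak, the densest and sparsest member of each family, the 10 with most distal sites (3 tied for the last place), the 5 highest and 5 lowest replicate ratios, the 5 highest promoter ranks, and members nearest to the 10 highest distal sites, of which Efna5 and Sema6a (scores 129 and 115) were members. Epha4, Efnb2 and other genes in the site map or the wider counts were named after their values were seen. Alternatives were stricter overlap, stronger peaks, lists of equal length, hotspots, each replicate alone, other windows and limits, and all protein-coding transcripts of the annotation.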

Additional observations from a re-analysis of the deposited data

How the results depend on the processing

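The number of members with a shared promoter peak was 63 and ran from 62 to 66 under all alternatives. The ratio of peaks in the windows, 1.36, ran from 1.35 to 1.49 with stronger peaks, hotspots, 50 kb on each side or gene bodies alone. It was not computed over the windows for lists of equal length, where windows of single members, such as Dcc and Unc5d, fell below equality and others, such as Sema6d, did not. The median distal density of the members, 8.41 per 100 kb, was 4.69 with the stronger part of each list and from 10.2 to 14.5 with each replicate alone, and under the other alternatives it moved by less than the spread between replicates. The members' median minus that of all genes was 2.12 per 100 kb and stayed positive throughout. It was 4.11 with 50 kb on each side, 7.30 in gene bodies alone, 4.71 in the sequence nearest to each gene, and from 2.70 to 3.87 with each replicate alone. The value for gene bodies compares longer bodies in members (median 46.3 kb) with shorter ones over all genes (17.4 kb). The gap between the highest and the lowest family median, 6.24 per 100 kb, was 11.96 in gene bodies alone, 10.1 in the sequence nearest to each gene, and from 7.91 to 13.1 with each replicate alone. The family at each end also depended on the setting. EphB receptors, for example, had the lowest median in gene bodies alone (4.39) and the highest in the sequence nearest to each gene (14.5). The cause was not tested.

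The lists hold no read counts, so depth limits every count to what each list called, and replicate 2 alone has fewer regions. No paired analysis was possible because there was a single group and no comparison between groups.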

Other observations

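Peaks found in a single list can lie beside a strong peak of the other. The 12 strongest such peaks in the windows, 6 from each replicate and with scores of 86 to 147, lay 10 to 130 bp from a peak of the other replicate with a score of 73 to 142. The highest, with a score of 147 in replicate 1, was in the Sema6b window, where the nearest replicate 2 peak lay 130 bp away with a score of 137. In the Efna2 window, beside the start of a neighbouring gene, a replicate 1 peak (score 142) and a replicate 2 peak (score 120) lay 10 bp apart and so did not count as shared.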
